A study of Mus musculus with 5 samples.

Results

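Group 1 innate lymphoid cell (ILC1)-like cells of the obstructed mouse kidney were examined: 1175 of 12172 kept cells in 2 kidney libraries, and of 20619 kept cells in the 4 libraries with counts. They were selected on unique molecular identifiers (UMIs), each of which counts 1 captured RNA molecule. A cell entered with no UMI of the T cell genes Cd3d, Cd3e and Cd3g, at least 2 UMIs summed over Ncr1, Klrb1c, Xcl1 and Klrd1, none of Eomes, Klra8 or Itga2, and none of Il1rl1. The first 4 of these NK receptor and chemokine genes are shared by ILC1s and natural killer (NK) cells, the next 3 mark conventional NK cells, and Il1rl1 marks group 2 ILCs. The choice therefore rests on measured values, and those genes are described but support nothing.

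The wild-type library came from kidney 14 days after unilateral ureteral obstruction (UUO), in which the left ureter is tied. The other library is labelled PD-1 KO (strain B6.Cg-Pdcd1tm1.1Shr/J) and came from kidney 3 days after UUO. All mice were male and 8 to 10 weeks old, and both libraries are labelled innate lymphoid cells sorted by flow cytometry. Genotype and day differ together, so their parts in any difference cannot be told apart. Wild-type kidney 3 days after UUO was not analysed here. Each group is 1 library, and how many mice it pools is not stated in the sources used here. No difference could be tested, no p-value is given, and bracketed ranges are 95% intervals that cover counting error alone. The strain is a constitutive knockout, so all cell types carry the allele. The protocol text describes a digestion of pulmonary artery, which does not match the kidney.

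ILC1s are lymphocytes without rearranged antigen receptors that sit in tissues and depend on the transcription factor T-bet, which Tbx21 encodes. They share NK receptors and type 1 cytokine production with conventional NK cells, which in addition need Eomes, circulate in blood and carry many Ly49 inhibitory receptors. CD49a, the collagen-binding integrin encoded by Itga1, and CXCR6, a chemokine receptor, are common markers of tissue-resident ILC1s. PD-1, encoded by Pdcd1, is an inhibitory receptor of activated lymphocytes, and UUO is a standard model of kidney inflammation and fibrosis.

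The libraries kept 5212 cells (wild type) and 6960 cells (labelled PD-1 KO), with median depths of 1824 and 2064.5 UMIs per cell. The ILC1-like cells were 552 and 623 of these, or 10.6% (9.77 to 11.5%) and 8.95% (8.29 to 9.65%) of the kept cells. The median ILC1-like cell held 1813.5 and 2199 UMIs from 1075 and 1213 genes. They were summed to 1039668 and 1432389 UMIs, and levels are given in CPM, a gene's UMIs scaled to a fixed total of UMIs in the class. The sort was for innate lymphoid cells, yet 2235 and 2156 kept cells had at least 2 Cd3 UMIs and none of the NK receptor genes (T-like cells). Of 5282 barcodes of wild-type kidney at day 14, between 24 and 25 also occurred in each of the other libraries that have barcodes.

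Among cells with NK receptor UMIs but no Cd3 and no Il1rl1 UMI, the ILC1-like cells were the larger fraction in both libraries. They were 70.0% (66.6 to 73.1%) of 789 such cells in wild-type kidney and 71.6% (68.5 to 74.6%) of 870 in the library labelled PD-1 KO. The remaining 237 and 247 cells held at least 1 UMI of Eomes, Klra8 or Itga2 and are called NK-like. Over 4 bins of depth the fraction ran from 66.7 to 73.6% in wild-type kidney and from 66.8 to 75.7% in the other, with no steady order. The shallowest bin held the highest fraction in both libraries. With every cell thinned to 1000 UMIs the fraction over all depths was 75.3% and 78.5%, so it moves with depth. A cell with few UMIs can miss Eomes by chance, and how many ILC1-like cells are NK cells of this kind was not tested.

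The label was checked against its markers. Xcl1, which encodes the chemokine that attracts cross-presenting dendritic cells, had a UMI in 81.5% and 84.1% of the cells (wild type, then labelled PD-1 KO). Klrb1c, the gene of the NK1.1 receptor, was seen in 76.1% and 73.5%, and Ncr1, the gene of the activating receptor NKp46, in 59.8% and 54.7%. These 3 genes were used in the choice. Itga1 and Tbx21 were not used. Itga1 was seen in 124 cells of wild-type kidney (22.5%) and 90 cells of the other library (14.4%). Tbx21 was seen in 105 (19.0%) and 140 (22.5%).

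Both unused markers stood above their levels in ILC2-like and T-like cells of the same libraries. Itga1 alone of the 2 also stood above NK-like cells in both libraries. Cells with an NK receptor UMI were kept out of the ILC2-like, T-like and B-like classes, which may widen the gaps to those classes. T cells that bear these receptors were not compared. Itga1 was at 195 CPM (169 to 224) and 101 CPM (85.4 to 119). In ILC2-like cells, which have an Il1rl1 UMI and no Cd3 or NK receptor UMI, it was at 3.36 CPM (0.693 to 9.82) and 15.2 CPM (8.31 to 25.5). T-like cells had Itga1 at 26.6 and 35.7 CPM, and NK-like cells at 89.0 and 62.9 CPM. Tbx21 was at 142 CPM (120 to 167) and 126 CPM (108 to 145) in ILC1-like cells and at 2.24 and 5.42 CPM in ILC2-like cells. T-like cells had Tbx21 at 13.0 and 62.2 CPM. NK-like cells had it at 133 and 168 CPM, the second above the ILC1-like level, so it does not mark ILC1-like cells off from NK-like cells. Of 67 and 47 B-like cells, which hold at least 3 UMIs summed over Cd79a, Cd79b and Ms4a1, 0 and 1 had a Tbx21 UMI. After thinning each cell to 1000 UMIs, Tbx21 was seen in 12.5% and 12.1% of ILC1-like cells and 0% and 2.27% of B-like cells. With so few B-like cells their intervals are wide. The name ILC1-like is kept on Itga1 against NK-like cells over all members together. Against the other classes, chosen without NK receptor UMIs, it is kept on both markers. In cluster 1 (70 and 285 cells), described below, Itga1 was at 39.3 and 45.3 CPM, under its level in NK-like cells. In cells with no UMI of a T cell receptor constant, Cd8 or Cd4 gene, its wild-type log2 ratio to NK-like cells was -0.41 (-1.60 to 0.90).

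**Figure D1:**
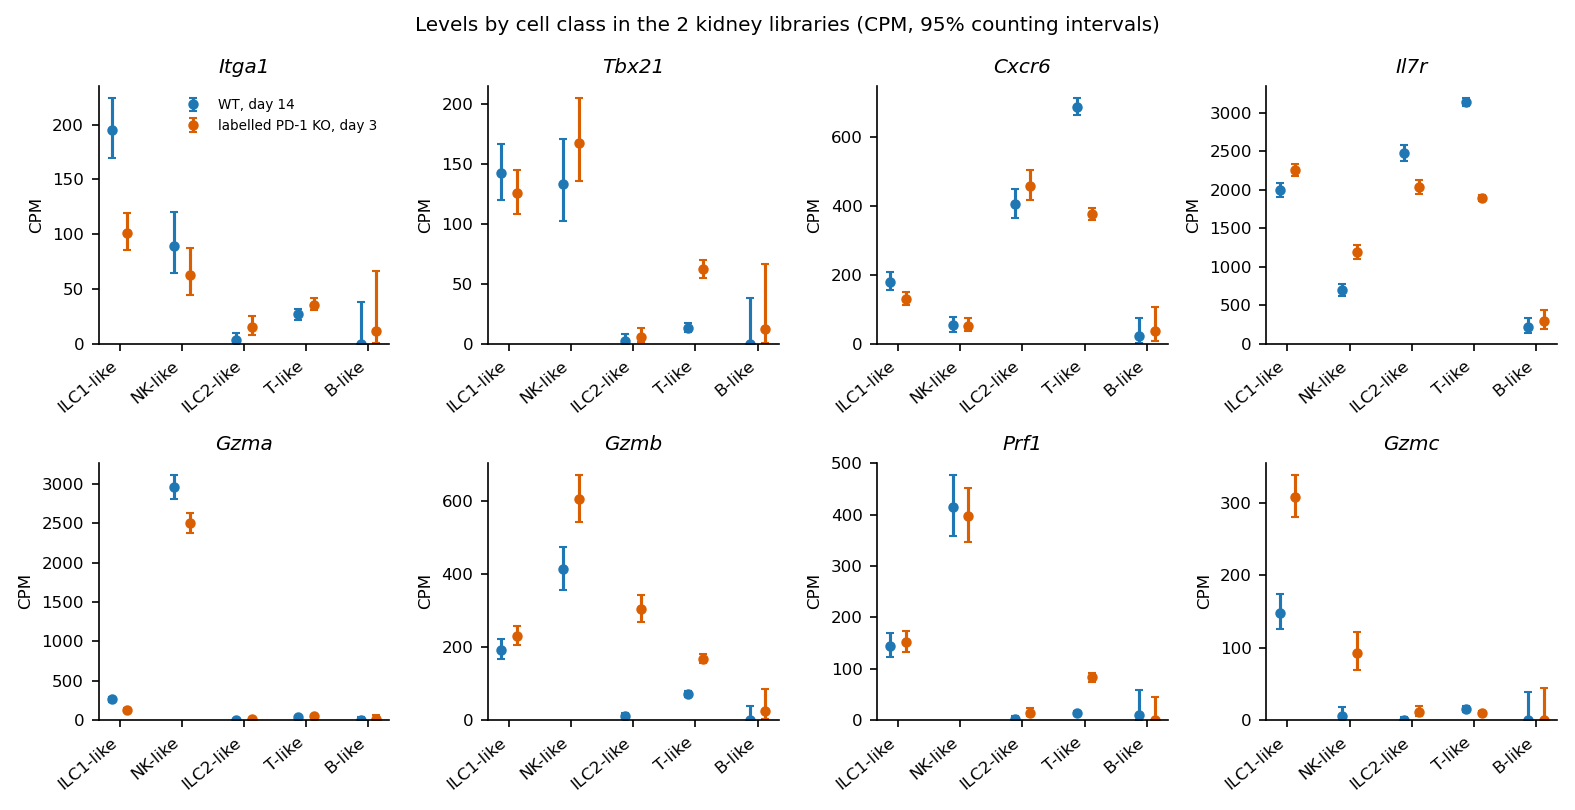
Level in CPM (vertical axis, linear, from 0) of 8 genes in 5 cell classes of wild-type kidney at day 14 (blue) and the library labelled PD-1 KO at day 3 (orange). Points are sums over the cells of 1 library and bars are 95% counting intervals. Gzma is at 263.5 and 133 CPM in ILC1-like cells and at 2955 and 2502 CPM in NK-like cells. Tbx21 intervals of these classes overlap, with the NK-like point higher in the library labelled PD-1 KO.

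Along the bar on Eomes, Klra8 and Itga2, Gzma and Il7r changed step by step. With 0 UMIs of Eomes, Klra8 and Itga2, Gzma stood at 263.5 and 133 CPM. With exactly 1 it stood at 1531 CPM (75 cells) and 654 CPM (89 cells), with 2 at 3217 and 2048 CPM, and with 3 or more at 3775 and 4144 CPM. Il7r, the interleukin 7 receptor gene, ran the other way along the same steps, at 1996, 1440, 392 and 326 CPM in wild-type kidney. In the library labelled PD-1 KO its steps were 2253, 2030, 1435 and 432 CPM. Itga1 did not fall at each step, at 195, 97.7, 105 and 78.5 CPM in wild-type kidney. In the library labelled PD-1 KO it was at 101, 118, 54.9 and 23.15 CPM, so it was not lower just outside this bar. At the other bar, cells with 1 NK receptor UMI, just outside, had Itga1 at 31.2 and 67.4 CPM. Those with 2, just inside, had it at 130 and 60.6 CPM, so it was not higher just inside this bar in the library labelled PD-1 KO.

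The granzyme genes differed between ILC1-like and NK-like cells in opposite directions. Granzymes are proteases released by killer lymphocytes, and perforin, encoded by Prf1, opens the target cell for them. The sequences before the starts of 3 granzyme genes and of Xcl1 are shown because the granzyme genes carry that contrast and Xcl1 was seen in the most cells of the 4 NK receptor and chemokine genes of the choice. They are 250 bases from RefSeq (GRCm38.p6), 5′ to 3′ on the gene's strand and ending just before the start. Capitals mark every match, on either strand, to 4 short motifs: T-box (GGTGTGA), Runx (TGTGGTT), AP-1 (TGACTCA) and Ets (GGAAGTG). No match overlaps another. The 4 genes were chosen after their values had been seen.
Gzma, chr13:113100982-113101231, minus strand: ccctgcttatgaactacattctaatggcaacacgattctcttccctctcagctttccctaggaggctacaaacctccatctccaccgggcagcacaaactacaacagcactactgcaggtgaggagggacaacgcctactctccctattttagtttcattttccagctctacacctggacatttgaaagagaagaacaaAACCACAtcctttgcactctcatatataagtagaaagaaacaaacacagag
Gzmb, chr14:56262335-56262584, minus strand: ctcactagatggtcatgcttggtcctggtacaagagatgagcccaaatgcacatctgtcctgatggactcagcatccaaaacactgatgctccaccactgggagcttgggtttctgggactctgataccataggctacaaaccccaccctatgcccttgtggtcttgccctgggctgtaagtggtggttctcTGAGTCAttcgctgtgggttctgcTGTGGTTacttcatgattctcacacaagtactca
Gzmc, chr14:56234658-56234907, minus strand: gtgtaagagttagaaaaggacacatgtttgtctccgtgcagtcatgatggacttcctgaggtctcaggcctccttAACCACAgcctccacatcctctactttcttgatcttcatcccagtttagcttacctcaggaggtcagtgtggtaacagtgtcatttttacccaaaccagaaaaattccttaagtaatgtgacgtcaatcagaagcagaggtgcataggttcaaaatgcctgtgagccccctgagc
Xcl1, chr1:164935523-164935772, minus strand: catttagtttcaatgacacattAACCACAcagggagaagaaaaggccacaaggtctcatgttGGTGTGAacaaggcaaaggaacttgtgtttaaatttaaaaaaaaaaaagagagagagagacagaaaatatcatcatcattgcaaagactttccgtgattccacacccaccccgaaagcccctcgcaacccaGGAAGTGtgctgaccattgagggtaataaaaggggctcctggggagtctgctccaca

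The Runx letters occurred in all 4 of these stretches, 51 to 45 bases before the start of Gzma, 34 to 28 before Gzmb, 175 to 169 before Gzmc and 228 to 222 before Xcl1. Gzmb also held the AP-1 letters, 58 to 52 bases before its start. The T-box letters occurred in that of Xcl1, 188 to 182 bases before the start, with the Ets letters 57 to 51 before it. Of 32851 such promoters 4.40% hold the Runx letters, 3.33% the T-box, 4.46% the AP-1 and 8.55% the Ets letters. These are matches of letters and show no binding.

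Gzma encodes the granzyme with the highest level of the 3 in NK-like cells. It was at 263.5 CPM (233 to 297) in ILC1-like and 2955 CPM in NK-like cells of wild-type kidney. The library labelled PD-1 KO had 133 CPM (115 to 154) and 2502 CPM. The log2 ratios of ILC1-like to NK-like cells were -3.49 (-3.68 to -3.30) and -4.23 (-4.46 to -4.01). Gzmc was the reverse: 148 against 6.36 CPM in wild-type kidney, where the NK-like cells held 3 UMIs, and 309 against 92.7 CPM in the other library. Its log2 ratios were 4.54 (2.97 to 6.84) and 1.74 (1.32 to 2.17). Gzmb and Gzmc lie within 30.8 kb on chromosome 14 (56231441 to 56262260, GRCm38). Yet Gzmb was lower in ILC1-like cells, with log2 ratios of -1.10 and -1.39. Gene spans here and below follow the GENCODE annotation, whose gene ends can differ from the RefSeq starts used for the sequences above. Prf1 was lower too, at 145 against 415 CPM and 152 against 397 CPM. Few cells carried the granzymes: Gzma had a UMI in 47 and 51 ILC1-like cells and Gzmc in 41 and 98.

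Over all 2971 genes with at least 100 UMIs in both classes together in each library, 68 (2.29%) were at least 1.5-fold higher in ILC1-like cells of both libraries. Another 46 (1.55%) were at least 1.5-fold lower. The split on Eomes, Klra8 and Itga2 used this contrast, so nothing is read from these shares. What follows names the genes and their levels.

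Of 17 ILC1 and residency genes compared, 8 were higher in both libraries and 0 lower. The list median was 0.55 against 0 for all genes. For each gene this median takes whichever library's log2 ratio is smaller in size, and 0 where the libraries differ in sign. Later list medians of ILC1-like against NK-like cells follow the same rule. Cxcr6 was at 180 against 53.0 CPM in wild-type kidney and 129 against 52.4 CPM in the library labelled PD-1 KO. Il7r was at 1996 against 699 CPM and 2253 against 1192 CPM. Itga1 was at 195 against 89.0 CPM and 101 against 62.9 CPM, with log2 ratios of 1.13 (0.65 to 1.65) and 0.69 (0.15 to 1.25). The transcription factor gene Rora, needed for ILC2 development and common in resident lymphocytes, had log2 ratios of 1.23 and 1.16. Ikzf2, which encodes Helios, had 1.28 and 1.10. Inpp4b, the gene of a phosphoinositide phosphatase, had 1.78 and 1.22. The neighbouring membrane protein genes Tmem176a and Tmem176b, also listed as ILC3 markers, had 1.96 and 1.30 and 1.74 and 1.26. In cells with no UMI of a T cell receptor constant, Cd8 or Cd4 gene, Il7r (0.52) and Inpp4b (0.53) were under 1.5-fold in the library labelled PD-1 KO, and Itga1 was at -0.41 (-1.60 to 0.90) in wild-type kidney.

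Tbx21 had log2 ratios of 0.09 (-0.34 to 0.54) and -0.42 (-0.78 to -0.04). It was thus lower in ILC1-like than in NK-like cells of the library labelled PD-1 KO, though under 1.5-fold. The death ligand gene Tnfsf10 (TRAIL), another ILC1 marker, had 0.47 (-0.03 to 0.99) and 1.03 (0.38 to 1.75). Zfp683, the gene of the residency factor Hobit, was barely counted, at 11.5 and 4.19 CPM in ILC1-like cells and 0 UMIs in NK-like cells of both libraries.

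The Ly49 and NKG2 genes had the lowest median of the 20 gene lists. Ly49 receptors recognise MHC class I molecules, and their Klra genes lie with Klre1 within 809 kb of chromosome 6 (129577905 to 130386874, GRCm38). Among 12 Ly49 and NKG2 genes compared, 7 were lower in both libraries and 1, Klrb1b, was higher, with a median of -0.84. Klra4 (Ly49D) was at 8.66 against 816 CPM and 15.4 against 538 CPM, log2 ratios of -6.56 and -5.13. Klra7 (Ly49G) had -3.08 and -4.53, and Klra9 (Ly49I) -1.99 and -4.18. The Klra genes are near-identical copies whose 3′ reads may be assigned to one another, so single members are uncertain. Klra8, another member, was itself used to exclude cells.

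Genes of NK cell maturation and circulation were not lower as a list, with a median of -0.07 against 0 for all genes. Single genes of it and of the homing receptors were. Irf8 had log2 ratios of -1.14 and -0.83, and the chemokine receptor gene Ccr2 -1.18 and -1.24. Klf2, a transcription factor gene of recirculating lymphocytes, had -1.15 and -0.72, while Ly6c2 was higher, with 1.53 and 0.60. Trdc, the T cell receptor delta constant gene, which NK cells transcribe without a rearranged receptor, had -2.14 and -2.15.

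**Figure D2:**
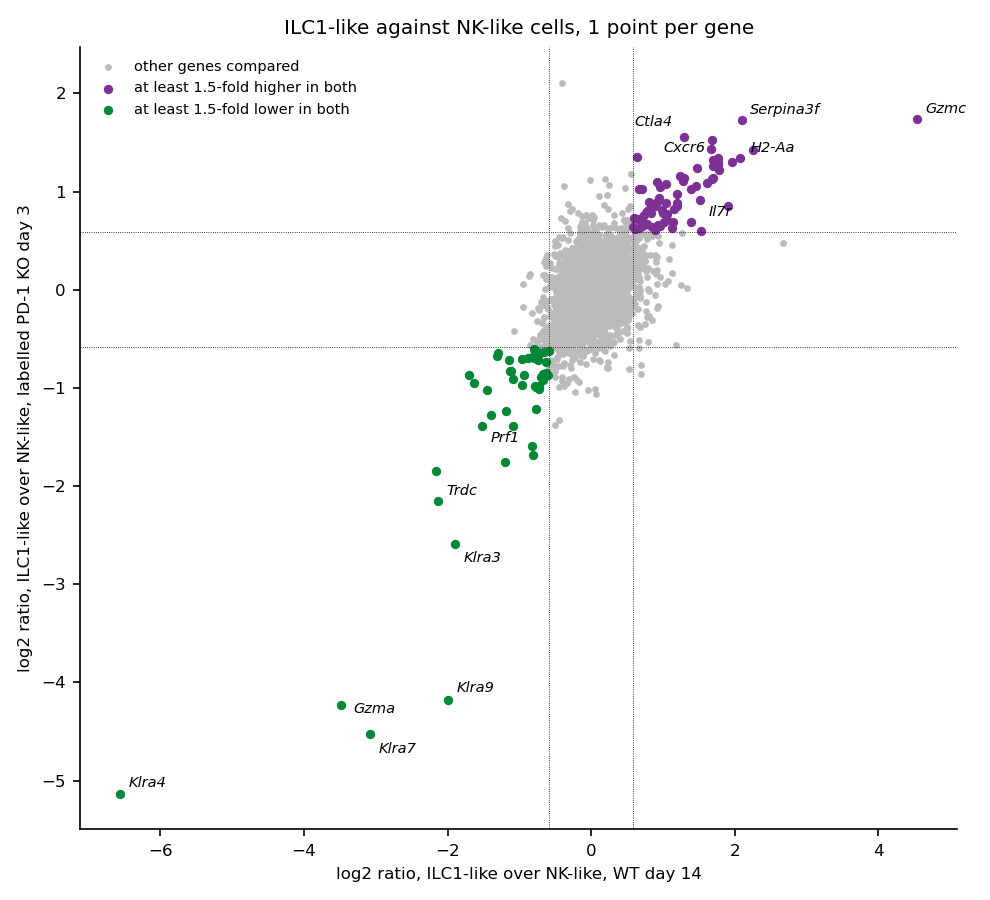
Log2 ratio of ILC1-like to NK-like cells for 2971 genes, wild-type kidney on the horizontal axis and the library labelled PD-1 KO on the vertical axis, with dotted lines at 1.5-fold. Purple points (68 genes) are higher in both and green points (46 genes) lower in both. Gzmc lies alone at the upper right and Klra4, Klra7 and Gzma at the lower left.

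Genes of MHC class II presentation were also higher in ILC1-like than in NK-like cells: 4 of 4 compared, with a median of 1.34. Cd74, the invariant chain, was at 1051 against 309 CPM and 2066 against 816 CPM. B-like cells of the same libraries had Cd74 at 9175 and 12710 CPM, and 21 ILC1-like cells of cluster 4, described below, reached 18110 and 11410 CPM. In wild-type kidney 2 ILC1-like cells held 393 of 1093 Cd74 UMIs. Without clusters 3, 4 and 6 the wild-type log2 ratio was 0.59 for Cd74 in place of 1.77, and 0.86 for H2-Aa in place of 2.07. NK-like cells were not clustered, so none were left out on their side. A Cd74 UMI was found in 21.7% and 57.3% of ILC1-like cells, 13.5% and 40.1% of NK-like cells and 15.6% and 29.7% of T-like cells. Thinned to 1000 UMIs, the ILC1-like shares were 15.7% (12.7 to 19.1%) and 44.4% (40.3 to 48.4%) and the NK-like shares 9.25% and 24.1%. The part of free RNA and of joined cells in these levels was not tested.

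The kidney libraries were then compared within the ILC1-like cells. Of 4280 genes with at least 100 UMIs in both together, 180 (4.21%) were at least 1.5-fold higher and 187 (4.37%) at least 1.5-fold lower in the library labelled PD-1 KO. The median log2 ratio over these genes was -0.03. The 5th and 95th percentiles were -0.56 and 0.54. The list counts below are set against these 2 shares, and a count of 1 in a list of 10 or more is near them.

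Pdcd1 had the highest ratio, and it was higher, not lower, in the library labelled PD-1 KO. It was counted 18 times in 14 of 552 ILC1-like cells of wild-type kidney, 17.3 CPM (10.3 to 27.4). In the library labelled PD-1 KO it was counted 271 times in 173 of 623 cells, 189 CPM (167 to 213). The log2 ratio was 3.45 (2.76 to 4.23). Thinned to 1000 UMIs, 1.15% (0.42 to 2.49%) and 16.7% (13.8 to 19.9%) of cells had a Pdcd1 UMI. No cell among 67 and 47 B-like cells had a UMI, and the thinned intervals reached 6.72% and 8.04%. The reads count the 3′ end of the RNA, and the sources used here do not say which exons are deleted. The count is therefore no check of genotype or label.

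Pdcd1 levels of the other classes give the background. NK-like cells had it at 4.24 CPM (0.513 to 15.3) and 97.9 CPM (74.0 to 127), a log2 ratio of 4.53 (2.61 to 7.61). ILC2-like cells had it at 150 CPM (126 to 178) and 122 CPM (100.1 to 146), and T-like cells at 184 CPM (172 to 197) and 218 CPM (205 to 232). In wild-type kidney the ILC1-like and NK-like intervals lay below those of ILC2-like and T-like cells, and in the library labelled PD-1 KO the ILC1-like interval overlapped that of T-like cells. Whether the ratios differ between classes was not tested.

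**Figure D3:**
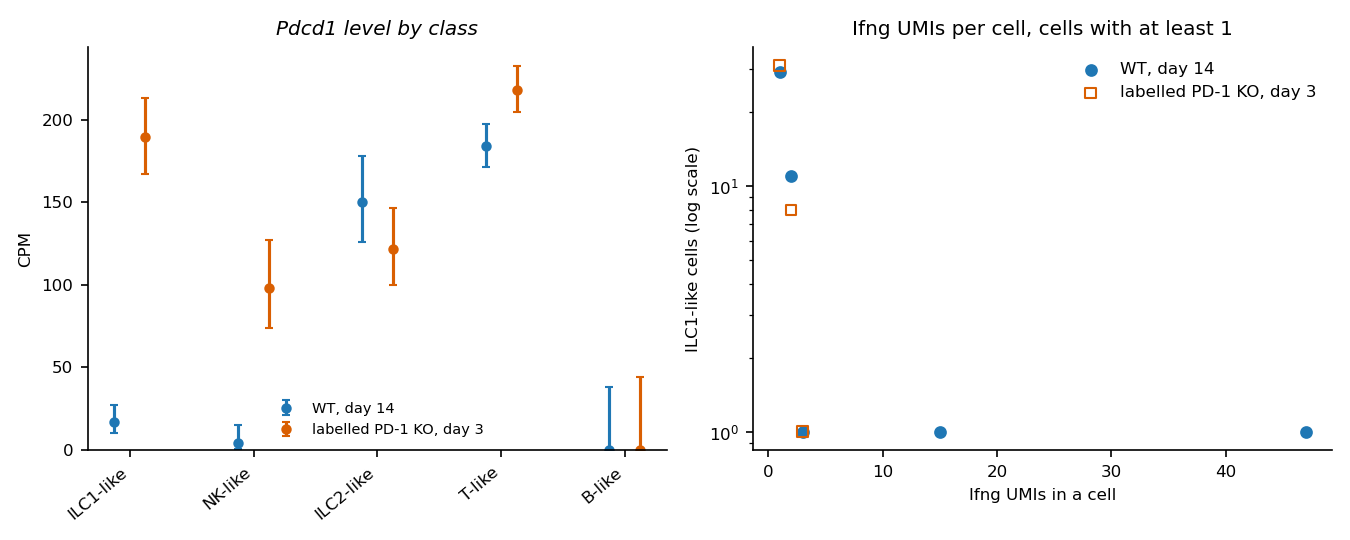
Left, Pdcd1 level in CPM (linear axis from 0) by class in wild-type kidney (blue) and the library labelled PD-1 KO (orange) with 95% counting intervals: ILC1-like cells are at 17.3 and 189 CPM. Right, number of ILC1-like cells (log scale) by Ifng UMIs in the cell, for cells with at least 1: in wild-type kidney single cells lie at 15 and 47 UMIs.

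Within the library labelled PD-1 KO, the 173 cells with a Pdcd1 UMI were set beside the 450 without. Gzma was at 51.1 CPM in cells with Pdcd1 and 169 CPM in those without, a log2 ratio of -1.73 (-2.44 to -1.08). Itga1 was at 137 against 85.9 CPM (0.67, 0.17 to 1.17), Cxcr6 at 172 against 111 CPM (0.63, 0.19 to 1.07), and Gzmc at 378 against 279 CPM (0.44, 0.15 to 0.73). For Il7r (-0.02), Xcl1 (0.10), Tnfrsf9 (0.07) and Tbx21 (0.14) the intervals held 0. The cells with Pdcd1 were somewhat deeper, at a median of 2342 against 2122 UMIs, and all are cells of 1 library. Cd8a was lower with Pdcd1, at 39.5 against 70.9 CPM (-0.85, -1.70 to -0.07). Wild-type kidney had 14 cells with Pdcd1, and there Itga1 was at 163 against 196 CPM (-0.26, -2.15 to 1.12). Gzmc was at 0 against 152 CPM and Gzma at 0 against 269.9 CPM in those 14 cells, where the Gzmc interval still held 0, while Cd8a was at 204 against 13.8 CPM (3.89, 2.06 to 5.44).

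Of 11 cytokine receptor genes compared, 1, Il2ra, was at least 1.5-fold higher in the library labelled PD-1 KO. The genes named beside it here belong to no one list. Il2ra, the interleukin 2 receptor alpha chain, was at 112 CPM in 78 wild-type cells and 237 CPM in 187 cells, a log2 ratio of 1.08 (0.78 to 1.40). Cd83, a membrane protein of activated lymphocytes and dendritic cells, was at 102 and 262 CPM (1.36, 1.05 to 1.69). Gadd45b, a stress kinase regulator, was at 49.1 and 137.5 CPM (1.49). Tnfrsf9, the costimulatory receptor 4-1BB, was at 319 and 529 CPM (0.73). Mdk, the growth factor midkine, was at 13.5 and 89.4 CPM (2.73, 1.93 to 3.64), with 9 and 65 cells. Gzmc was at 148 and 309 CPM (1.06), and the chemokine gene Ccl1 at 55.8 and 120 CPM (1.11), though 40 of 58 wild-type Ccl1 UMIs came from 2 cells. Cluster 1, described below, held 70 of 552 wild-type cells and 285 of 623 of the other library, and some of these ratios were absent within it. Inside cluster 1 Tnfrsf9 was at 779 and 782 CPM, Gzmc at 517 and 570 CPM, and Ccl1 at 321 and 216 CPM, the other way. Il2ra (242 and 382 CPM), Cd83 (236 and 453 CPM) and Mdk (52.4 and 147 CPM) were higher within it too.

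NF-kB feedback genes and MHC class II genes leaned the same way. Of 12 feedback genes compared, Nfkbid, Nfkbie and Nfkb2 were at least 1.5-fold higher and 0 were lower, with a list median of 0.28. Nfkbie, an inhibitor of NF-kB, was at 123 and 283 CPM (1.20). All 5 MHC class II genes compared were higher, with a median of 0.86, among them Cd74 at 0.97 and H2-Aa at 0.86. Without the small clusters 3, 4 and 6, described below, these were 1.82 and 1.75. The Cd74 ratio was also above 0 in NK-like (1.40), T-like (1.38), ILC2-like (0.68) and B-like cells (0.47), so it was not confined to ILC1-like cells.

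Among 10 Ly49 and NKG2 genes compared, Klra3, Klra9 and Klre1 were at least 1.5-fold lower and 0 higher, with a median of -0.32. The others did not pass. Klra9 was at 112 CPM in 38 wild-type cells and 14.0 CPM in 12 cells (-3.00, -3.76 to -2.31). Klre1, whose product pairs with Klri receptors, was at 434 and 176 CPM (-1.30, -1.53 to -1.08). In NK-like cells the Klra9 and Klre1 ratios were -0.80 and -0.75. Klrd1, used in the choice, was at 636 and 401 CPM.

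Of 18 ILC1 and residency genes compared, Itga1, Tnfsf10 and Cd7 were at least 1.5-fold lower and 0 higher. Itga1 was at 195 and 101 CPM (-0.95, -1.27 to -0.63), and Tnfsf10 at 132 and 82.4 CPM (-0.68), under 1.5-fold (-0.58) with a bar of 3 NK receptor UMIs. Cd7, a surface protein of T and NK lineage cells, was at 1312 and 674 CPM (-0.96, -1.08 to -0.84). Cxcr6 (-0.48), Tbx21 (-0.18), Il7r (0.17) and Xcl1 (-0.16) lay under 1.5-fold. None of 18 transcription factor genes compared was past 1.5-fold in either direction.

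Cytotoxic genes were mixed: of 13 compared, Gzmc was higher, and Gzma and Tnfsf10 lower. Gzma was at 263.5 and 133 CPM (-0.98, -1.26 to -0.71), under 1.5-fold (-0.58) in cells thinned to 1000 UMIs and -1.76 in cells with an Itga1, Cxcr6, Il7r or Tnfsf10 UMI. Within cluster 0, which held 299 of 552 and 164 of 623 cells and most Gzma UMIs, it was level at 481 CPM (423 to 543) and 474 CPM (402 to 555). Gzmb (0.26) and Prf1 (0.07, -0.24 to 0.38) lay under 1.5-fold, but Gzmb was at 2.01 (1.24 to 2.82) in the 88 and 43 cells with no UMI of a T cell receptor constant, Cd8 or Cd4 gene. Of 17 immediate early genes, 9 MHC class I genes and 10 glycolysis genes compared, 0 were past 1.5-fold. Of 11 genes of the TGF-beta response, the signal most tied to kidney fibrosis, Smurf2, Pmepa1 and Itga1 were lower and 0 higher. Among 11 inhibitory receptor genes, Pdcd1 and Lilrb4a were higher and Tigit lower (128 and 71.2 CPM).

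Ifng, the gene of interferon gamma, the defining cytokine of ILC1s, had a low ratio that rested on 2 cells. It was at 112 CPM in wild-type kidney and 34.9 CPM in the library labelled PD-1 KO (-1.68, -2.19 to -1.19). Of 116 wild-type Ifng UMIs, 62 lay in 2 cells holding 47 and 15. Without these cells the log2 ratio was -0.58, under 1.5-fold. The cells with any Ifng UMI were 43 of 552 and 40 of 623. The remaining cytokine genes past 1.5-fold were Ccl3 (-0.65) and Ccl4 (-0.61), both lower, and Ccl1.

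**Figure D4:**
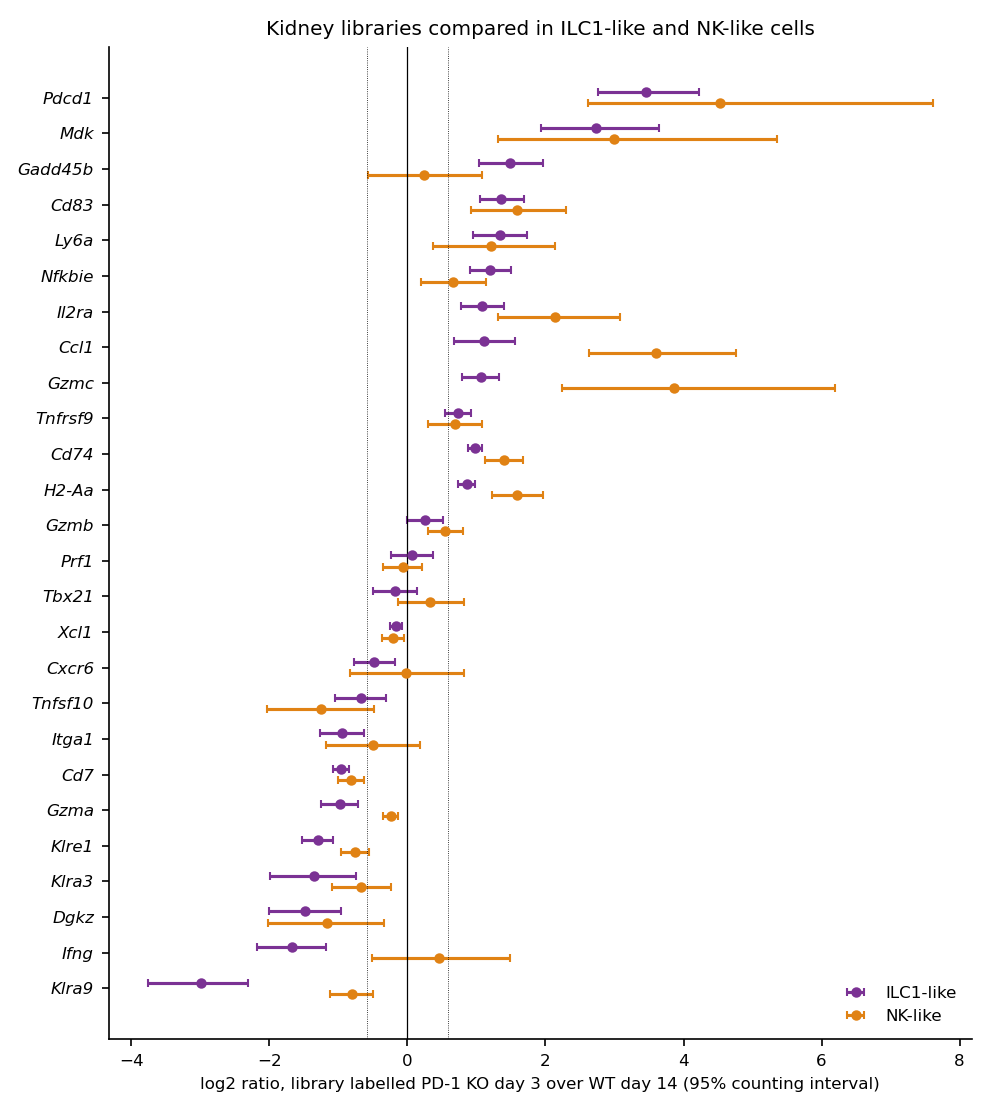
Log2 ratio of the library labelled PD-1 KO at day 3 to wild-type kidney at day 14 (horizontal axis) for 26 genes in ILC1-like (purple) and NK-like cells (orange), with 95% counting intervals and dotted lines at 1.5-fold. Pdcd1 and Mdk lie highest in ILC1-like cells and Klra9 lowest, and Prf1 and Tbx21 intervals hold 0.

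The ILC1-like cells fell into 7 clusters, built on 1000 variable genes of these same cells, so the genes that lead a cluster are its description and no finding. Cluster 0 (299 wild-type cells and 164 of the other library) was led by Gzma, Klra9, Klra3 and Klra7. Cluster 1 (70 and 285) was led by Ccl1, Gzmc, Ccdc184, Mdk and Cd83. It comes mostly from 1 library and may reflect that library. Cluster 2 (158 and 130) was led by Hspa4l, Myc and Igf1r, the gene of the insulin-like growth factor 1 receptor. These 3 held 1106 of the 1175 cells and carried Xcl1 at 1417 to 3091 CPM. Tbx21 stood at 123 to 157 CPM in all 3 and in both libraries.

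Pdcd1 led none of these clusters and was higher in the library labelled PD-1 KO in each of the 3. It was at 9.42 CPM (3.06 to 21.99) and 142 CPM (104 to 189) in cluster 0. In cluster 1 it was at 39.3 CPM (14.4 to 85.5) and 208 CPM (176 to 244), and in cluster 2 at 17.6 CPM (5.73 to 41.2) and 255 CPM (197 to 324). Itga1 was not lower in each: it was at 273 and 166 CPM in cluster 0, 39.3 and 45.3 CPM in cluster 1, and 162 and 208.5 CPM in cluster 2. Cd74 was at 79.2 and 308 CPM, 1938 and 2655 CPM, and 416 and 676 CPM. Klre1 was lower in each, at 609 and 388 CPM, 203 and 112 CPM, and 296 and 169.9 CPM. In cluster 2 Gzmc was lower (180 and 65.6 CPM) and Cd83 level (95.3 and 92.7 CPM).

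The other clusters were small. Cluster 3 (6 and 19 cells) was T cell-like, with 9 of 12 T cell markers at 2-fold or more, among them Cd8a, Cd8b1 and Trac. Cluster 4 (7 and 14 cells) was led by Siglech, Mpeg1, Ccr9 and Cybb and had 4 of 8 dendritic cell markers, Clec9a, Flt3, Siglech and Cd209a. Its cells had a median of 4236 UMIs and it lacked Itga1. Cluster 5 (9 and 6 cells) was led by the interferon-induced genes Ifit1, Slfn5 and Cxcl10. Cluster 6 (3 and 5 cells), led by the cell cycle genes Pclaf and Top2a at a median of 5245 UMIs, had 6 B cell and 6 ILC3 markers and is not named.

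Clusters 3, 4 and 6 touch some of the ratios above. Ccr9 had the second highest ratio of the library labelled PD-1 KO (94.3 against 12.5 CPM, log2 2.91), in 17 and 5 cells. Without clusters 3, 4 and 6 its ratio was 0.33. Mpeg1 (2.00), a gene of phagocytes and dendritic cells, had 0.18 without them. Cybb (1.68) and Cd8a (1.75), which also lead these clusters, stayed past 1.5-fold, though Cybb turned to -0.90 without candidate doublets. Pdcd1 (3.61), Gzmc (1.12) and Itga1 (-0.89) moved little.

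**Figure D5:**
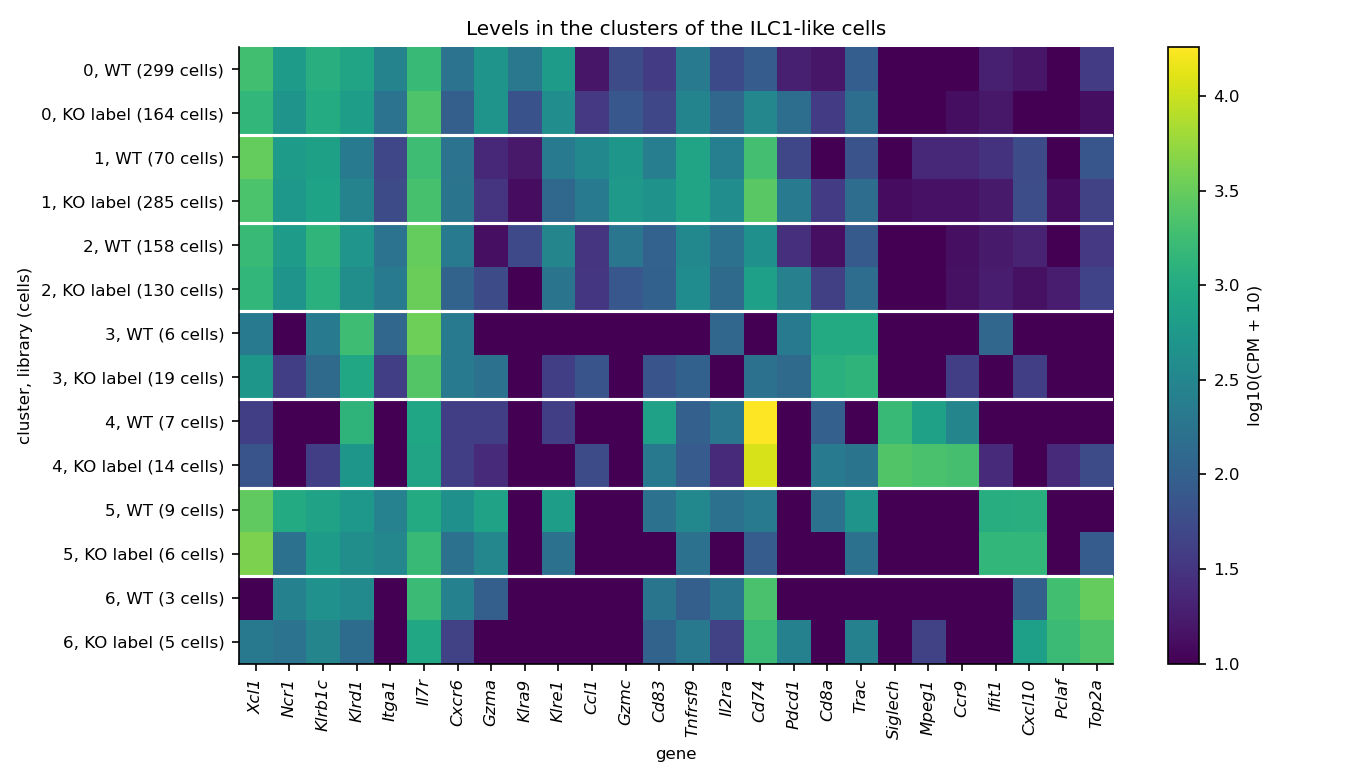
Level as log10(CPM + 10), shown by colour, of 26 genes (columns) in the 7 clusters of ILC1-like cells, each split by library (rows, with cells). Clusters 0 to 2 share Xcl1, Ncr1 and Il7r, cluster 3 has Cd8a and Trac, and cluster 4 has Siglech, Mpeg1 and Cd74 with no Itga1 UMI.

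T cell genes were counted in most ILC1-like cells despite the bar on Cd3. The 12 T cell markers summed to 1802 CPM (1722 to 1886) in wild-type kidney and 2167 CPM (2091 to 2245) in the library labelled PD-1 KO, with none at 0. NK-like cells had 1627 and 2250 CPM, ILC2-like cells 1180 and 1395, B-like cells 218 and 812, and T-like cells 6700 and 8358. Trbc1, a T cell receptor beta constant gene, was at 656 and 515 CPM in ILC1-like cells, against 434 and 516 CPM in T-like cells. Trac, the alpha constant gene, was seen in 12.1% and 28.7% of ILC1-like cells, 2.99% and 29.8% of B-like cells and 82.1% and 86.4% of T-like cells. Only 88 of 552 (15.9%) and 43 of 623 (6.90%) ILC1-like cells had no UMI of Trac, Trbc1, Trbc2, Cd8a, Cd8b1 or Cd4. In NK-like cells these shares were 13.5% and 6.48%. How many members are T cells whose Cd3 RNA was not caught was not tested.

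The 12 ILC3 markers summed to 1195 and 1534 CPM in ILC1-like cells (wild type, then labelled PD-1 KO). NK-like cells had 449 and 699 CPM, ILC2-like cells 1867 and 1566, and T-like cells 2740 and 1078. The 3 with enough UMIs to compare, Kit, Tmem176a and Tmem176b, were at least 1.5-fold higher than in NK-like cells of both libraries. Tmem176b was highest in ILC1-like cells, and Il22, the defining ILC3 cytokine gene, was at 0 in both libraries. Whether some members are ILC3s was not tested. Ighm, the immunoglobulin mu gene, was seen in 35.9% and 44.5% of ILC1-like cells and in 12.4% and 14.1% of T-like cells, while Ms4a1 was at 0 in wild-type kidney. It was not particular to ILC1-like cells. A UMI of the B cell markers, of which Ighm was highest, was in 37.5% and 47.8% of ILC1-like and 32.9% and 42.9% of NK-like cells. Kidney epithelium markers summed to 26.9 CPM (17.9 to 38.9) and 142 CPM (123 to 163), and erythroid markers to 6.73 and 70.5 CPM. Both are higher in the library labelled PD-1 KO, and their part in the differences between the libraries was not tested. Macrophage markers summed to 35.6 and 42.6 CPM, and neutrophil markers to 0 and 8.38 CPM. Fibroblast markers (1.92 and 1.40 CPM) and mast cell markers (0.962 and 2.09 CPM) were near 0.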

How the data were processed

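Per the labels' protocols, libraries were made with BD Rhapsody single-cell capture. The authors deposited UMI counts per gene and cell. CASAVA 1.8, Seurat, UMI-tools and the mm10 build stand in the submitters' processing notes. Aligner, annotation and cell calling were not stated there. The wild-type matrix had no gene names of its own and took the list of 31253 genes that 3 other libraries share. The correlation across genes of log2(CPM + 1) between ILC1-like cells of the libraries was 0.981, and 0.200 with genes shifted by 1 place.

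Kept cells had 500 or more UMIs, 250 or more genes and no more than 20% mitochondrial UMIs. Counts were summed per library and class. Levels have exact Poisson, shares Clopper-Pearson and ratios exact conditional binomial 95% intervals. A gene was called past 1.5-fold with at least 100 UMIs on both sides together. Clusters came from 1000 variable genes, 15 principal components, 15 neighbours and Leiden resolution 0.5 (scanpy 1.11.5, leidenalg 0.10.2, numpy 2.4.6, scipy 1.17.1, pandas 2.3.3, matplotlib 3.10.9, Python 3.11.15). No doublet caller was run; candidate doublets were left out in an alternative. The ratio code was run on simulated Poisson counts. These hold no spread between cells, mice or libraries, so the run checks the calculation alone. Named genes are fixed ones (gate genes, markers, Cxcr6, Il7r, Tnfsf10, Ifng, Gzma, Gzmb, Prf1, Pdcd1, Zfp683), the 10 highest and 10 lowest ratios of each comparison with at least 50 CPM in the higher side (mitochondrial, ribosomal protein, predicted, antigen receptor segment, sex-linked and haemoglobin genes left out), up to 6 of each list, and the 10 leading genes of a cluster. The cells, the 20 gene lists and the 14 marker lists were chosen with earlier results of these data known.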

Additional observations from a re-analysis of the deposited data

Results flagged for a closer look

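The same choice of cells applied to the small intestine libraries, which the comparisons above do not use, held 312 of 3501 kept cells (8.91%) after sham surgery and 365 of 4946 (7.38%) 3 days after UUO. Those cells had Il22 at 3352 CPM (3234 to 3474) and 2720 CPM (2632 to 2810), while no Il22 UMI was found in the kidney ILC1-like cells.

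Ifng stood out because its ratio of ILC1-like to NK-like cells had opposite signs in the kidney libraries. In wild-type kidney the log2 ratio was 1.81 (1.03 to 2.70). In the library labelled PD-1 KO it was -0.32 (-1.04 to 0.43). The difference was not tested, and 62 of the 116 wild-type UMIs lie in 2 cells.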

How the results depend on the processing

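No paired analysis was possible because each group is 1 library. Of all the settings, requiring no UMI of a T cell receptor constant, Cd8 or Cd4 gene cost the most cells. The ILC1-like cells were then 1.69% and 0.618% of kept cells (wild type, then labelled PD-1 KO). They were 73.3% of NK receptor cells in wild-type kidney, with T cell markers at 256 and 283 CPM. The genes past 1.5-fold were then 27 higher and 26 lower between the libraries, and 8 and 5 between ILC1-like and NK-like cells. With fewer cells, fewer genes can meet the UMI filter. The number compared is not given at this bar, so these counts do not show whether the share of genes past 1.5-fold changed. Of 83 log2 ratios under this bar 21 stayed within their counting interval. These turned their sign: Ifng (0.84), H2-Aa (-0.18) and Gadl1 (-0.31) between the libraries, and between ILC1-like and NK-like cells Itga1 in wild-type kidney (-0.41) and Gzmb in the other (0.55). Ratios under 1.5-fold also turned: Tbx21 (0.16) and Il7r (-0.20) between the libraries, and between the classes Tbx21 in wild-type kidney (-0.79) and Ifng in the other (1.68). Their intervals at this bar held 0. Itga1, Tnfsf10, Gzma, Zfp36l2, Cd83, Nfkbie, Ccdc184, Cd74, Cd24a and Fam110a kept their sign between the libraries but were under 1.5-fold there. So were, between the classes, Il7r (0.52) and Inpp4b (0.53) in the library labelled PD-1 KO and Krt83 (0.28) in wild-type kidney. Gzmb rose past it between the libraries (2.01). Pdcd1 stayed between 3.19 and 3.92 over its 15 alternatives.

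The wild-type share of kept cells was 9.38% with an Ncr1 or Klrb1c UMI, 9.42% with no further NK gene, 9.67% with an Itga1, Cxcr6, Il7r or Tnfsf10 UMI, and 11.6% with cells thinned to 1000 UMIs. The share in the library labelled PD-1 KO was 7.92% with at least 3 NK receptor UMIs, 7.73%, 8.12%, 8.28% and 10.7% under those same 4 settings, 8.22% without cycling cells and 7.24% without candidate doublets. Of NK receptor cells the shares were 62.2% and 64.9% with no further NK gene, 63.9% and 66.2% with an Itga1, Cxcr6, Il7r or Tnfsf10 UMI, and 75.3% and 78.5% thinned. Without candidate doublets the T cell markers were at 1888 and 2346 CPM, and Mpeg1 (-0.16) and Cybb (-0.90) turned their sign. Cd24a did so with at least 3 NK receptor UMIs (-0.31).

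The genes past 1.5-fold between the libraries were 363 higher and 412 lower with at least 50 UMIs, 77 and 77 with at least 200, 3046 and 2526 with no filter, and 31 and 17 at 2-fold. Thinned to 1000 UMIs, which leaves fewer UMIs and so fewer genes that can meet the filter, 109 were lower. ILC1-like against NK-like cells gave 124 and 88, 40 and 24, 1358 and 629, and 26 and 13. At Leiden resolution 1.0 there were 14 clusters. Leaving out clusters 3, 4 and 6 or the 2 cells richest in Ifng was chosen after seeing the data. Rescaling by a median of ratios, or without mitochondrial and ribosomal protein genes, left all 97 ratios within their counting interval.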
